A study of Homo sapiens with 9 samples.

Results

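The genes of cholesterol and fatty acid synthesis were followed in ES-2 cells, a line derived from an ovarian cancer. The set was a list of names matched to the gene symbols of the deposited tables, and all 31 names were found among 58174 annotated genes, of which 19799 are protein-coding. By role, 7 members act in the mevalonate arm, 11 convert the farnesyl product of that arm into sterols, 6 regulate or move sterols and 7 make or modify fatty acids. Total RNA was sequenced after depletion of ribosomal RNA in 3 groups of 3 libraries, and 6421764 to 9416175 reads per library fell on genes. The siC group received a control siRNA, the siIGF2BP1 group a pool of siRNAs against IGF2BP1, an RNA-binding protein of fetal and tumor cells, and the siSRF group a pool against SRF, a transcription factor that binds CArG boxes. All cells were harvested 72 h after transfection, were grown in medium with fetal serum and carried no other treatment, so each group is a partial and transient knockdown in the same line. Nothing in the labels states that the 3 libraries of a group came from separate cultures, and p-values then measure the spread between these libraries, which may be technical.

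Cholesterol is assembled from acetyl-CoA through mevalonate, farnesyl diphosphate, squalene and lanosterol, and fatty acids are built from the same precursor. Transcription of both pathways is driven by the sterol regulatory element binding proteins, which SREBF1 and SREBF2 encode. These factors are held in the endoplasmic reticulum by the escort protein SCAP and the INSIG proteins when sterol is plentiful, and are carried to the Golgi apparatus and cleaved into active form when it is scarce.

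The knockdowns were checked in the targeted genes. IGF2BP1 was at 12.8, 13.5 and 12.1 FPKM (fragments per kilobase of gene, scaled to library size, a level that takes gene length into account) in siC, at 4.18, 4.14 and 4.02 in siIGF2BP1 and at 13.7, 14.6 and 14.4 in siSRF. SRF was at 13.6, 14.1 and 16.0 FPKM in siC, at 5.80, 5.42 and 6.80 in siIGF2BP1 and at 1.63, 1.36 and 1.42 in siSRF. Both targets were lowest where the labels place the knockdown, and SRF was also lower in siIGF2BP1 than in siC, so the siIGF2BP1 cells had less SRF mRNA as well. Of 8 markers of ovarian and other epithelial cells, 6 stayed at or below 0.262 FPKM in every library, MUC16 being at 0 throughout. The summed level of these 8 was 50.9 to 55.1 FPKM in siC, 47.6 to 61.4 in siIGF2BP1 and 87.7 to 94.3 in siSRF, most of it from the keratin KRT18, which rose in siSRF from a mean of 43.4 FPKM by 0.91 on the log2 scale (adjusted p = 0.000329), while KRT8 rose in siIGF2BP1 (0.55, adjusted p = 0.00455). The summed level of the mesenchymal markers VIM, CDH2, FN1 and ZEB1 was 1091.5 to 1109.8 FPKM in siC, 894.5 to 974.5 in siIGF2BP1 and 881.1 to 930.6 in siSRF. CDH2 rose (0.66) and FN1 fell (-0.80) in siIGF2BP1, and FN1 (-1.36) and VIM (-0.31) fell in siSRF, with adjusted p from 0.000329 to 0.0091. Of 8 markers of blood, endothelial, fat and liver cells, PTPRC, CD3E, ADIPOQ and ALB were at 0 in all 9 libraries. The summed level of these 8 ranged from 8.54 to 11.1 FPKM in siC, from 15.1 to 16.7 in siIGF2BP1 and from 7.70 to 8.72 in siSRF, nearly all of it from the endothelial cadherin CDH5, and the part of these 3 marker lists in the results was not tested. In bulk RNA, fewer cells that express a gene and less of its RNA per cell cannot be told apart.

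In the control cells the 31 genes spanned a wide range of levels per length. The lowest was HSD17B7, a sterol ketoreductase, with a mean of 1.29 ± 0.168 FPKM (SD, n = 3), and the highest was DHCR7, the reductase that acts on 7-dehydrocholesterol, with 326 ± 12.3 FPKM. The median member stood at 13.3 FPKM. Besides DHCR7, the stearoyl-CoA desaturase SCD (180 ± 12.8 FPKM; SD, n = 3) and the fatty acid synthase FASN (132 ± 7.69 FPKM) were the members above all others, whereas 6 members were below 5 FPKM. The least covered member, TM7SF2, had 24 reads in its shallowest library, and 31 reads were the lowest count for HSD17B7. All 31 passed the filter on low values in each comparison.

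The 2 knockdowns moved the set in different ways. In siIGF2BP1, 9 of the 31 genes rose and 1 fell at an adjusted p of 0.01 or less in the limma-trend fit, which is what a call means below unless limma-voom is named. Over all 22292 genes tested, 3.55% were called higher and 3.57% lower, and among protein-coding genes averaging 1 FPKM or more the shares were 6.49% and 7.07%. In siSRF no member rose and 17 fell, against 6.85% of all 21857 genes called higher and 5.34% lower, or 13.3% and 10.2% of the protein-coding genes at that level. On the higher side limma-voom also called none, and 1 member, the fatty acid elongase ELOVL6, had an unadjusted p under 0.05. The member median of the log2 fold change was 0.24 in siIGF2BP1 and -0.61 in siSRF, beside 0.02 and 0.01 over all genes tested. Both comparisons share the siC libraries, so their values stand side by side here and no overlap between them is drawn. The libraries of siIGF2BP1 lay entirely above those of siC for 15 members and entirely below for 2, where 18.1% and 17.6% of all genes and 25.1% and 28.6% of the protein-coding genes at that level did so. Those of siSRF lay entirely below siC for 23 members and entirely above for ELOVL6 alone, where 19% and 20.9% of all genes and 27.5% and 34.9% of those protein-coding genes did so.

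**Figure D1:**
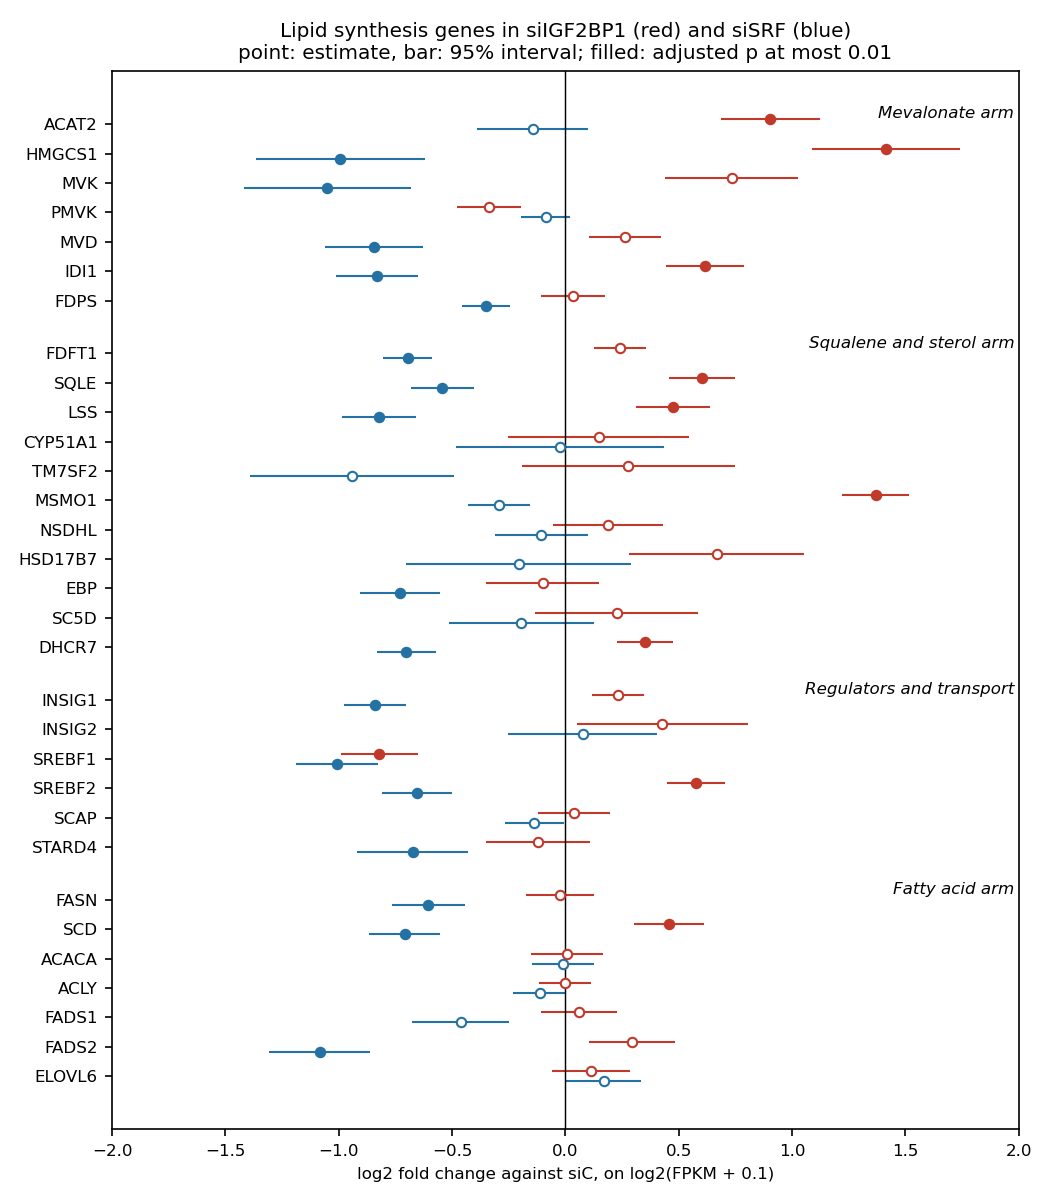
Log2 fold change against siC (horizontal axis, on the log2(FPKM + 0.1) scale) of each of the 31 genes, grouped by role, in siIGF2BP1 (red) and siSRF (blue); points are estimates from 3 libraries per group, bars are 95% intervals and filled points have an adjusted p of at most 0.01. Filled blue points (17) all lie left of 0, and of the filled red points 9 lie right of 0 and only SREBF1 lies left.

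The count in siIGF2BP1 depended on having all 6 libraries. It was 5 without siC replicate 1, 4 without siC replicate 2, 5 without siC replicate 3, 3 without siIGF2BP1 replicate 1, 2 without siIGF2BP1 replicate 2 and 1 without siIGF2BP1 replicate 3, while the member median stayed between 0.24 and 0.27. Among the single genes, MSMO1 and SREBF1 passed in all 6 of these fits and SREBF2 in 5. The siSRF count was 11 to 15 with a library left out, the lowest without siSRF replicate 2, and 11 of the 17 genes passed in all 6 fits. The share of all genes called was not counted in the fits with a library left out. Whether the loss of calls was particular to the members was therefore not tested. A limma-voom fit on the recovered reads gave 13 higher and 1 lower in siIGF2BP1 (8.59% and 8.48% of all genes) and 19 lower in siSRF (10.7% of all genes). The genes it added were MVK, FDFT1, HSD17B7 and FADS2 in siIGF2BP1 and TM7SF2 and FADS1 in siSRF.

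Among the regulators, the genes of the 2 factors went apart in siIGF2BP1. SREBF2, which encodes the factor best known for sterol genes, was at 14, 15.2 and 15.3 FPKM in siC, at 22.2, 21.8 and 22.5 in siIGF2BP1 and at 8.85, 9.64 and 9.67 in siSRF. The 3 groups did not overlap, with siIGF2BP1 the highest and siSRF the lowest. SREBF2 rose in siIGF2BP1 by a log2 fold change of 0.58 ± 0.05 (SE; adjusted p = 0.00136) and fell by 0.65 ± 0.06 on the log2 scale in siSRF (adjusted p = 0.00123). SREBF1, which encodes the factor best known for fatty acid genes, was at 13.3, 14.3 and 12.9 FPKM in siC, at 8.07, 7.38 and 7.34 in siIGF2BP1 and at 6.65, 6.23 and 7.13 in siSRF. Here siC was the highest group and both knockdowns were lower in every library. The log2 fold change of SREBF1 was -0.82 ± 0.07 (adjusted p = 0.00113) in siIGF2BP1 and -1.01 ± 0.07 (adjusted p = 0.000553) in siSRF. The difference between the knockdowns for SREBF1 was 0.19 on the log2 scale (95% interval 0.00 to 0.37), with an adjusted p of 0.117.

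**Figure D2:**
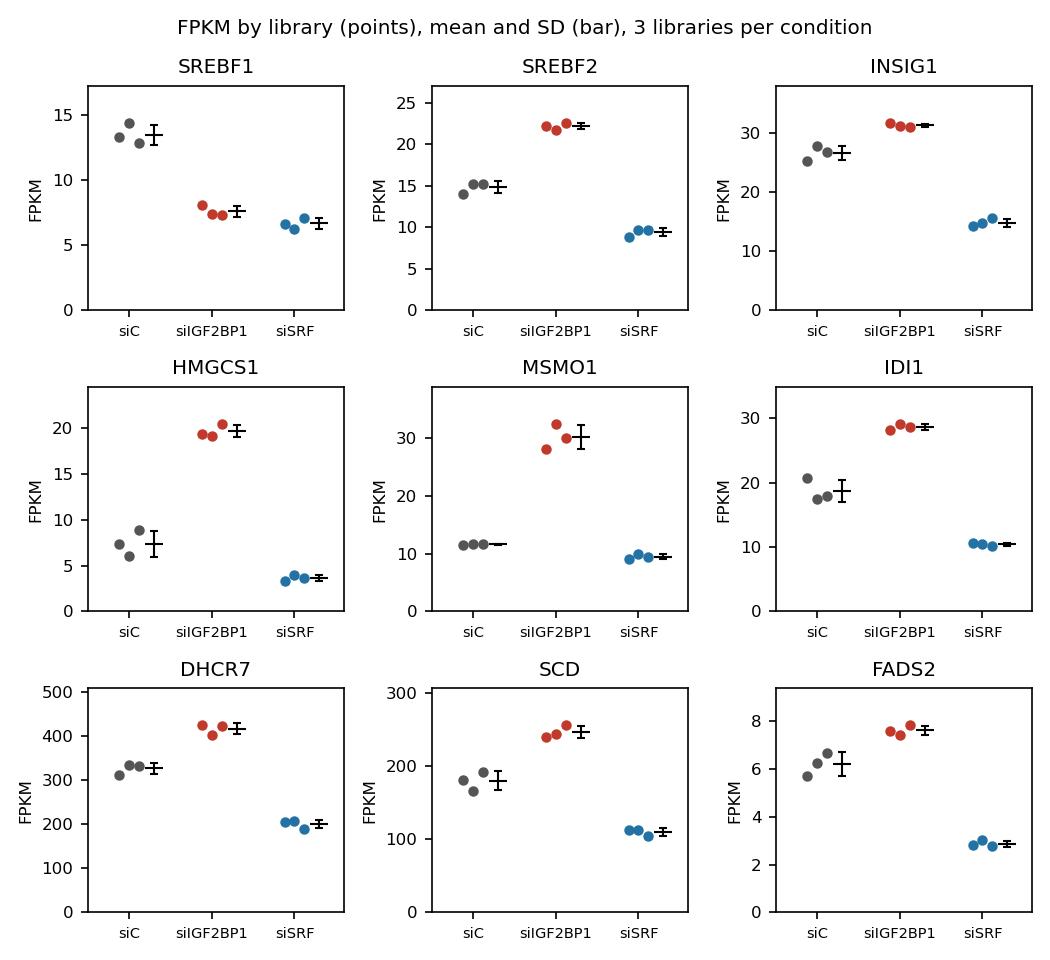
FPKM (vertical axes, starting at 0) of 9 genes in each of the 9 libraries, by group; points are libraries and the bar beside them gives the mean and SD of 3. SREBF1 is highest in siC, whereas for SREBF2, INSIG1, HMGCS1, MSMO1, IDI1, DHCR7, SCD and FADS2 every siIGF2BP1 library lies above every siC library and every siSRF library below.

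The level of SREBF1 relative to SREBF2 was 0.911 ± 0.059 (SD, n = 3) in siC, 0.343 ± 0.0193 in siIGF2BP1 and 0.712 ± 0.0574 in siSRF. No library of one group reached the range of another. In an exact two-sided permutation test each pair of groups gave p = 0.1, which is the smallest value that 3 libraries against 3 allow. The annotated exons of SREBF1 share 6.8% of their bases with the opposite-strand gene RAI1, and those of SREBF2 share 9.1% with SREBF2-AS1. How the counting treated strand is not given in the sources used here.

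INSIG1, which encodes a retention protein of the factors, is itself a classical target of the pathway. It was at 25.2, 27.7 and 26.8 FPKM in siC, at 31.6, 31.1 and 31 in siIGF2BP1 and at 14.2, 14.7 and 15.5 in siSRF. The siIGF2BP1 libraries were all above siC, but the log2 difference of 0.23 (95% interval 0.12 to 0.35) had an adjusted p of 0.0225 and was not called. In siSRF INSIG1 fell by 0.84 ± 0.06 on the log2 scale (adjusted p = 0.000473). INSIG2, its paralog, was at 2.84, 2.98 and 3.68 FPKM in siC, at 4.36, 3.61 and 4.93 in siIGF2BP1 and at 3.02, 3.33 and 3.64 in siSRF. All 3 groups overlapped with at least 1 other, and neither knockdown had a call for INSIG2 (log2 fold change 0.43, adjusted p = 0.128, and 0.08, adjusted p = 0.745). The level of INSIG1 relative to INSIG2 was 8.49 ± 1.06 in siC, 7.38 ± 1.17 in siIGF2BP1 and 4.46 ± 0.219 in siSRF (SD, n = 3), and the siSRF libraries lay below all others (exact two-sided permutation p = 0.1 against siC).

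SCAP, the escort of both factors, was at 13.1, 14.1 and 12.9 FPKM in siC, at 14.2, 12.8 and 14.2 in siIGF2BP1 and at 11.8, 12.3 and 12.2 in siSRF. Its siSRF libraries were the lowest, but no call was made in either knockdown, with 95% intervals of -0.12 to 0.20 in siIGF2BP1 and -0.27 to -0.01 in siSRF on the log2 scale. STARD4, a soluble carrier that moves cholesterol between membranes, was at 9.27, 7.87 and 9.27 FPKM in siC, at 7.57, 8.78 and 7.91 in siIGF2BP1 and at 5.05, 5.37 and 6.01 in siSRF. It fell in siSRF (log2 fold change -0.67 ± 0.10, adjusted p = 0.0052), whereas the siIGF2BP1 libraries overlapped those of siC (-0.12, adjusted p = 0.477). The siSRF call for STARD4 held in 1 of the 6 fits with a library left out.

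In the mevalonate arm, 3 of 7 genes rose in siIGF2BP1 and 5 of 7 fell in siSRF. HMGCS1, the cytosolic HMG-CoA synthase, was at 7.31, 6.04 and 8.85 FPKM in siC, at 19.4, 19.2 and 20.4 in siIGF2BP1 and at 3.28, 3.97 and 3.66 in siSRF. It had the largest rise of the 31 in siIGF2BP1, at 266% of the siC mean (log2 fold change 1.41 ± 0.13, adjusted p = 0.0016), and stood at 49.1% of it in siSRF (-0.99 ± 0.15, adjusted p = 0.00586). With a library left out, the HMGCS1 call held in 3 of 6 fits for siIGF2BP1 and in 1 of 6 for siSRF, and 37.7% of its exon bases coincide with an unnamed gene of the opposite strand in GENCODE v44. ACAT2, the cytosolic thiolase that joins acetyl-CoA units, was at 10.9, 12.3 and 13.8 FPKM in siC, at 22.5, 24.2 and 22.5 in siIGF2BP1 and at 12.1, 10.6 and 10.7 in siSRF. It rose in siIGF2BP1 (0.90 ± 0.09, adjusted p = 0.00186), a call that held in 2 of the 6 fits without a library, and its siSRF libraries overlapped those of siC (-0.15, 95% interval -0.39 to 0.10). Of the exon bases of ACAT2, 22.2% are shared with genes of the opposite strand, TCP1 among them.

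IDI1, the isomerase of the isoprenoid units, was at 20.7, 17.5 and 17.9 FPKM in siC, at 28.1, 29.0 and 28.7 in siIGF2BP1 and at 10.7, 10.5 and 10.1 in siSRF. The groups did not overlap, and IDI1 was called in both knockdowns (0.62 ± 0.07, adjusted p = 0.00323, and -0.83 ± 0.08, adjusted p = 0.00099), the rise in 1 and the fall in all 6 of the 6 fits with a library left out. Mevalonate kinase, MVK, was at 2.38, 2.82 and 2.48 FPKM in siC, at 4.59, 3.83 and 4.55 in siIGF2BP1 and at 1.19, 1.05 and 1.32 in siSRF. The siIGF2BP1 difference of MVK, 0.73 ± 0.12, fell just short of a call (adjusted p = 0.0104), and the siSRF difference of -1.05 ± 0.15 was called (adjusted p = 0.00466) but in none of the 6 fits with a library left out. MVD, the decarboxylase that follows, was at 8.70, 9.23 and 9.20 FPKM in siC, at 11.1, 10.2 and 11.4 in siIGF2BP1 and at 5.35, 4.44 and 5.23 in siSRF. Only the fall of MVD was called (-0.84 ± 0.09, adjusted p = 0.00158), although its siIGF2BP1 libraries all lay above siC (0.26, adjusted p = 0.0415). With GC and length trends removed, MVD (0.41, adjusted p = 0.00266) and MVK (0.81, adjusted p = 0.00263) were both called higher in siIGF2BP1.

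Farnesyl diphosphate synthase, FDPS, was at 46.0, 49.1 and 49.3 FPKM in siC, at 50.6, 46.0 and 51.4 in siIGF2BP1 and at 37.1, 38.7 and 37.5 in siSRF. The siIGF2BP1 libraries of FDPS overlapped siC, with a log2 difference of 0.03 (95% interval -0.11 to 0.17), and the fall in siSRF was small (-0.35 ± 0.04, adjusted p = 0.00279) and held in 1 of the 6 fits without a library. With GC and length trends removed it was -0.20 (adjusted p = 0.00559). Opposite-strand genes cover 18.6% of the exon bases of FDPS and 15.0% of those of IDI1. PMVK, the kinase between MVK and MVD, stood apart from its neighbours in siIGF2BP1, with means of 26.7 ± 1.05 FPKM in siC, 21.1 ± 1.21 in siIGF2BP1 and 25.1 ± 0.515 in siSRF (SD, n = 3). All its siIGF2BP1 libraries were below those of siC, at a log2 difference of -0.34 and an adjusted p of 0.0126, short of a call.

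In the squalene and sterol arm, 4 of 11 genes rose in siIGF2BP1 and 5 fell in siSRF. MSMO1, the methylsterol monooxygenase, takes part in the removal of methyl groups from the sterol ring. It was at 11.5, 11.8 and 11.6 FPKM in siC, at 28.2, 32.4 and 30.1 in siIGF2BP1 and at 9.01, 9.98 and 9.43 in siSRF. It reached 260% of the siC mean in siIGF2BP1 (1.37 ± 0.06, adjusted p = 0.000154), while in siSRF its libraries were all below siC at 81.6% of the mean, without a call (-0.29, adjusted p = 0.0136). With GC and length trends removed, the siSRF difference of MSMO1 was -0.54 and passed the threshold (adjusted p = 0.0033). Squalene epoxidase, SQLE, was at 21.5, 20.4 and 22.9 FPKM in siC, at 31.2, 33.7 and 33.7 in siIGF2BP1 and at 15.2, 14.8 and 14.4 in siSRF. Lanosterol synthase, LSS, was at 7.24, 7.4 and 7.55 FPKM in siC, at 10.2, 9.74 and 11 in siIGF2BP1 and at 4.05, 4.05 and 4.33 in siSRF. SQLE and LSS had 3 groups without overlap and a call in each knockdown, SQLE by 0.60 and -0.54 and LSS by 0.48 and -0.82 on the log2 scale, with adjusted p from 0.000742 to 0.00624. The rise of SQLE held in 3 of the 6 fits without a library and its fall in 5.

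DHCR7, one of the enzymes of the last step, was at 312, 334 and 332 FPKM in siC, at 424, 402 and 423 in siIGF2BP1 and at 206, 206 and 189.7 in siSRF. DHCR7 rose by 0.35 ± 0.05 on the log2 scale (adjusted p = 0.00707) and fell by 0.70 ± 0.05 (adjusted p = 0.000593). The siIGF2BP1 calls for DHCR7 and LSS were lost in each of the 6 fits with a library left out. Squalene synthase, FDFT1, was at 21.6, 20.6 and 21.1 FPKM in siC, at 25.5, 23.9 and 25.5 in siIGF2BP1 and at 13.1, 12.6 and 13.2 in siSRF. Its fall was called (-0.70 ± 0.05, adjusted p = 0.00044), and its siIGF2BP1 libraries were above siC without a call (0.24, adjusted p = 0.0196). EBP, the sterol isomerase, was at 12.8, 13.6 and 13.7 FPKM in siC, at 13.8, 10.6 and 13.1 in siIGF2BP1 and at 7.51, 8.70 and 7.83 in siSRF. EBP overlapped siC in siIGF2BP1 and fell in siSRF (-0.73 ± 0.07, adjusted p = 0.0013).

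TM7SF2, a sterol reductase with few reads, was at 2.22, 2.46 and 1.70 FPKM in siC, at 3.14, 2.33 and 2.32 in siIGF2BP1 and at 0.987, 1.13 and 1.03 in siSRF. Its siSRF libraries did not reach the siC range, but the difference of -0.94 ± 0.19 was not called (adjusted p = 0.0141). For CYP51A1, NSDHL, HSD17B7 and SC5D, which demethylate, oxidise, reduce and desaturate the sterol ring, limma-trend gave no call in any comparison, whereas limma-voom called HSD17B7 higher in siIGF2BP1 than in siC (adjusted p = 0.0077) and than in siSRF (adjusted p = 0.000224), and SC5D higher than in siSRF (adjusted p = 0.00612). Their means ran from 1.11 to 6.12 FPKM in siSRF, from 1.29 to 6.58 in siC and from 2.1 to 7.55 in siIGF2BP1. Of these 4, HSD17B7 moved most, to 163% of the siC mean in siIGF2BP1 with no overlap of libraries (0.67 ± 0.16, adjusted p = 0.0381). CYP51A1 and EBP share 68.2% and 36.4% of their exon bases with gene models on their own strand in GENCODE v44, a later release than the one the authors counted on, and an effect of this on the values was not tested.

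In the fatty acid arm, 1 of 7 genes rose in siIGF2BP1 and 3 fell in siSRF. SCD, which introduces the double bond of oleic acid, was at 181, 166 and 191 FPKM in siC, at 239.8, 243 and 255 in siIGF2BP1 and at 112, 113 and 104 in siSRF. SCD was called in both knockdowns without overlap (0.46 ± 0.06, adjusted p = 0.0058, and -0.71 ± 0.06, adjusted p = 0.00103), but the siIGF2BP1 call was lost in each of the 6 fits without a library. FASN, the multi-domain synthase of palmitate, was at 123, 136 and 137 FPKM in siC, at 136, 122.5 and 131 in siIGF2BP1 and at 81.0, 86.8 and 92.5 in siSRF. FASN overlapped siC in siIGF2BP1 (-0.02, 95% interval -0.18 to 0.13) and fell in siSRF (-0.61 ± 0.07, adjusted p = 0.00181), by 0.33 on the log2 scale with GC and length trends removed (adjusted p = 0.00324). The level of SCD relative to FASN was 1.36 ± 0.128 in siC, 1.90 ± 0.123 in siIGF2BP1 and 1.27 ± 0.132 in siSRF (SD, n = 3), with no overlap between siIGF2BP1 and siC (exact two-sided permutation p = 0.1).

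FADS2, the desaturase that opens the polyunsaturated pathway, was at 5.70, 6.23 and 6.68 FPKM in siC, at 7.61, 7.42 and 7.83 in siIGF2BP1 and at 2.81, 3.01 and 2.79 in siSRF. It fell to 46.3% of the siC mean in siSRF (-1.08 ± 0.09, adjusted p = 0.000833) and differed by 0.29 without a call in siIGF2BP1 (adjusted p = 0.0538). FADS1, its neighbour on chromosome 11 and the next desaturase of the pathway, was at 21.4, 21.4 and 24.1 FPKM in siC, at 22.4, 22.6 and 24.7 in siIGF2BP1 and at 17.5, 16.6 and 14.4 in siSRF. All siSRF libraries of FADS1 were below siC, short of a call (-0.46 ± 0.09, adjusted p = 0.0126). ACACA, ACLY and ELOVL6, which form malonyl-CoA, supply acetyl-CoA and lengthen palmitate, had no call in any comparison. The means of ACACA were 10.3 ± 0.514 FPKM in siC, 10.3 ± 0.488 in siIGF2BP1 and 10.2 ± 0.0794 in siSRF (SD, n = 3), and its 95% intervals were -0.15 to 0.17 and -0.15 to 0.13 on the log2 scale. ACLY was at 78.3, 78.3 and 72.4 FPKM in the same order, and ELOVL6 at 15.7, 16.9 and 17.6 FPKM.

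The knockdowns were also compared directly, in a fit that uses no siC library. In siIGF2BP1, 20 of the 31 genes were higher than in siSRF and none was lower, where 8.82% of all 22311 genes were called higher and 11.2% lower, and 15.6% and 21.8% of the protein-coding genes averaging 1 FPKM or more. Read with limma-voom, 22 were higher and none lower (14.7% and 16.3% of all genes). On the lower side 1 member, PMVK, had an unadjusted p under 0.05 (-0.25, adjusted p = 0.0119). By role, 6 of 7 genes of the mevalonate arm, 7 of 11 of the sterol arm, 3 of 6 regulators and 4 of 7 of the fatty acid arm were higher. The member median was 0.87 on the log2 scale, beside 0.02 over all genes tested, and a pseudocount of 1 in place of 0.1 gave 0.577. The libraries did not overlap for 25 members that were higher and for PMVK, which was lower, where 22.8% and 23.3% of all genes and 30.6% and 39.4% of the protein-coding genes at that level did so.

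HMGCS1 had the largest difference between the knockdowns, 2.41 ± 0.08 on the log2 scale (SE; adjusted p = 1.54e-05), a 5.31-fold higher level in siIGF2BP1. MVK followed with 1.78 ± 0.14 (adjusted p = 0.000244), MSMO1 with 1.66 ± 0.07 (adjusted p = 2.77e-05), IDI1 with 1.45 ± 0.04 (adjusted p = 1.15e-05) and FADS2 with 1.38 ± 0.07 (adjusted p = 5.9e-05). SREBF2 differed by 1.23 ± 0.05 (adjusted p = 3.03e-05), INSIG1 by 1.07 and SCD by 1.16. Of the 20 calls, 15 held in all 6 fits with a library left out, while EBP and STARD4 held in 1, FADS1 in 2, FDPS in 3 and TM7SF2 in 4. The 11 genes without a limma-trend call, of which limma-voom called HSD17B7 and SC5D, were PMVK, CYP51A1, NSDHL, HSD17B7, SC5D, INSIG2, SREBF1, SCAP, ACACA, ACLY and ELOVL6.

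**Figure D3:**
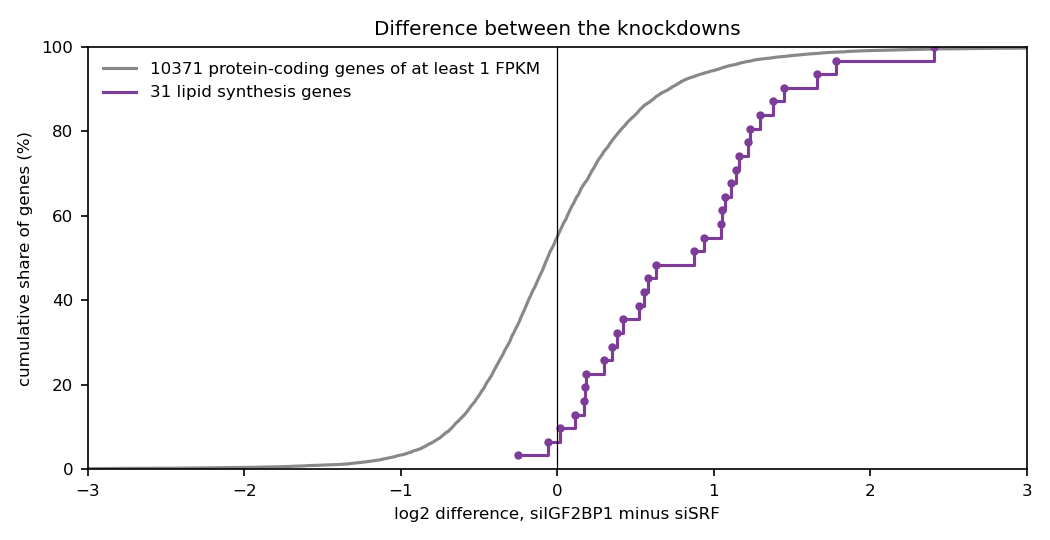
Cumulative share of genes (vertical axis, %) by log2 difference between the knockdowns (horizontal axis, siIGF2BP1 minus siSRF) for the 31 lipid synthesis genes (purple, one point per gene) and for 10371 protein-coding genes averaging 1 FPKM or more (gray; the axis is cut at -3 and 3). The purple curve lies to the right of the gray one, with a median of 0.87 against -0.06, and 29 of the 31 genes are right of 0.

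Added up within each library, the 7 mevalonate genes came to 121.7 to 129 FPKM in siC, 153 to 161 in siIGF2BP1 and 93.7 to 95.1 in siSRF. The 11 sterol genes summed to 403 to 424 FPKM in siC, 530.5 to 555 in siIGF2BP1 and 252 to 269.7 in siSRF, with DHCR7 making up most of each sum. The 7 fatty acid genes summed to 434 to 464 FPKM in siC, 499 to 527 in siIGF2BP1 and 309.7 to 320.4 in siSRF. For all 3 arms the sums of the 3 groups did not overlap. Most of the higher fatty acid sum in siIGF2BP1 came from SCD. The mean of SCD was 179.6 FPKM in siC and 246.1 in siIGF2BP1, beside mean sums of 444.3 and 512.3. The median log2 fold change of the 7 fatty acid genes in siIGF2BP1 was 0.06, with 5 above 0 and 2 below, so the sum does not describe the arm as a whole. The 6 regulators came to 77.7 to 82.2 FPKM in siC, 85.4 to 87.9 in siIGF2BP1 and 49.6 to 54.2 in siSRF.

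The promoters of the members were searched for the letters of motifs known from this pathway, since the measured genes are textbook targets of factors that bind them. Windows of 250 bases before to 50 after the start (RefSeq, GRCh38.p14) were held for 27 of the 31 members, not for ACAT2, FDFT1, SQLE and FASN. The CCAAT box of NF-Y (CCAAT, either strand) was in 17 of the 27 windows, or 63.0%, beside 35.7% of all 27305 windows and 37.5% of the 8209 windows of expressed protein-coding genes. The GC box of Sp1 (GGGCGG) was in 25 of 27, or 92.6%, beside 44.6% and 72.0%. The sterol regulatory element in the form TCACNCCAC was in 1 window, that of SREBF2, beside 1.15% of all windows and 1.08% of the expressed ones. Its core CACNCCAC, which includes the longer form, was in 4 (SREBF2, INSIG1, SCD and SC5D), or 14.8%, beside 5.74% and 5.36%. The E-box CACGTG was in 4 (LSS, SC5D, INSIG1 and SCAP), or 14.8%, beside 7.43% of all windows and 10.5% of the expressed ones, and a CArG box, the site of SRF, was in none, beside 1.29% and 0.962%. A match of letters describes the window and does not show binding, and the absence of a match holds for these windows only.

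The stretches below show matches in SREBF2, called higher in siIGF2BP1 and lower in siSRF, in INSIG1, whose product holds the factors back, and in HMGCS1, MSMO1 and SCD, the most changed genes of their arms in siIGF2BP1. Capitals mark the matched letters, and each stretch is read in the direction of its gene, so that a match on the other strand appears as its reverse complement (ATTGG for the CCAAT box).
SREBF2 sterol regulatory element, chr22:41832962-41832991, plus strand: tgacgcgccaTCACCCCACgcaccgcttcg
INSIG1 E-box, chr7:155297811-155297840, plus strand: gccgggcaggctCACGTGatgcgggccccg
INSIG1 element core, chr7:155297659-155297688, plus strand: gcgggccggcgGTGGCGTGtgcgcacgtca
SCD element core, chr10:100347108-100347137, plus strand: gcagaggccggGTGGTGTGgtgtcggtgtc
HMGCS1 CCAAT box, chr5:43313495-43313524, minus strand: ctaccggccgcgATTGGctgtgggagccac
MSMO1 CCAAT box, chr4:165327581-165327610, plus strand: caactgcacagaCCAATcaccgcgccgaga

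The SREBF2 match starts 133 bases before the RefSeq start of the gene, whose GENCODE v44 span is chr22:41833105-41907306, and a CCAAT box lies 106 bases before the start. MSMO1 (chr4:165327667-165343164) had 4 CCAAT boxes, more than HMGCS1 with 2 (chr5:43287470-43313512). SREBF1, on chr17:17810399-17837002, had 3 GC boxes and neither a CCAAT box nor the element core in its window. Any other start of SREBF1, inside the gene or elsewhere, was not searched. FADS2 had none of the 6 motifs in its window, and IDI1 had 4 GC boxes alone. The IDI1 matches lie between chr10:1056694 and chr10:1056788, outside the GENCODE v44 span of the gene (chr10:1039152-1049119). The IDI1 window therefore does not cover the start of that span, whose motifs were not searched.

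Other genes of lipid metabolism were counted from lists of the same pathways. Of 13 other isoprenoid and sterol genes, 12 were tested, 2 rose and none fell in siIGF2BP1 (2 were lower at an unadjusted p under 0.05, and limma-voom called none lower), and 2 rose and 1 fell in siSRF. Over all genes tested, 3.55% were called higher and 3.57% lower in siIGF2BP1, and 6.85% and 5.34% in siSRF. C14orf1, a scaffold of the sterol demethylation complex, was at 10.0, 11 and 11.6 FPKM in siC and 18.1, 15.3 and 17.5 in siIGF2BP1 (0.64 ± 0.09, adjusted p = 0.0053), with 9.21, 9.79 and 8.96 in siSRF. NUS1, a subunit of the enzyme that makes dolichol, was at 24.1, 21.6 and 25.2 FPKM in siC and 45.8, 45.6 and 43.5 in siSRF (0.93 ± 0.07, adjusted p = 0.000507). PDSS1, which makes the side chain of ubiquinone, rose in siSRF as well (0.63 ± 0.07, adjusted p = 0.00148). NUS1 and PDSS1 draw on the farnesyl product of the mevalonate arm, and both rose where 5 genes of that arm fell.

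Of 13 genes for the processing and export of the SREBF products, 4 rose and none fell in siIGF2BP1, and 2 rose and none fell in siSRF. On the lower side, 1 gene in siIGF2BP1 and 2 in siSRF had an unadjusted p under 0.05, and limma-voom called 1 in each. By limma-trend, 3.55% of all genes tested were called higher and 3.57% lower in siIGF2BP1, and 6.85% and 5.34% in siSRF. For protein-coding genes averaging 1 FPKM or more, those shares were 6.49% and 7.07% in siIGF2BP1 and 13.3% and 10.2% in siSRF. SEC23A, a coat subunit of the vesicles that leave the endoplasmic reticulum, was at 16.7, 16.7 and 17.5 FPKM in siC, at 32.8, 36.3 and 35.9 in siIGF2BP1 and at 15.6, 14.4 and 14.6 in siSRF. SEC23A rose by 1.04 ± 0.05 in siIGF2BP1 on the log2 scale (adjusted p = 0.000242). SEC24D, another subunit of that coat, MBTPS1, the protease that makes the first cut in the factors, and ERLIN2, a membrane protein that takes part in the decay of pathway proteins, rose there by 0.64, 0.57 and 0.63. MBTPS2, the protease of the second cut, was at 3.24, 3.03 and 3.55 FPKM in siC, at 1.84, 2.01 and 2.13 in siIGF2BP1 and at 3.31, 3.33 and 4.06 in siSRF, and is named here after its values were seen. Its siIGF2BP1 libraries were all lower, at -0.69 ± 0.12 on the log2 scale, without a limma-trend call (adjusted p = 0.0128) but with one by limma-voom (adjusted p = 1.42e-05). In siSRF limma-trend called none of the 4 that rose, and limma-voom called SEC24D lower (-0.46, adjusted p = 0.000354).

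Sterol uptake, efflux and storage was covered by 18 genes, of which 16 were tested. Of these, 1 rose and 1 fell in siIGF2BP1, near the 6.49% and 7.07% of protein-coding genes averaging 1 FPKM or more. In siSRF none rose and 3 fell, beside 13.3% and 10.2% of such genes. There 3 were higher at an unadjusted p under 0.05 and limma-voom called 1 higher. The limma-trend shares over all genes tested were 3.55% higher and 3.57% lower in siIGF2BP1, and 6.85% and 5.34% in siSRF. LRP1, a lipoprotein receptor, was at 2.09, 2.15 and 2.18 FPKM in siC and 6.27, 5.23 and 5.23 in siIGF2BP1 (1.34 ± 0.11, adjusted p = 0.000964), and at 1.11, 1.45 and 1.31 in siSRF, short of a limma-trend call (adjusted p = 0.0207) but called by limma-voom (adjusted p = 8.18e-07). NPC2, which hands cholesterol on inside lysosomes, was at 8.04, 10.1 and 6.59 FPKM in siC and 2.04, 2.23 and 1.87 in siSRF (-1.94 ± 0.17, adjusted p = 0.000867). The lipoprotein receptor SCARB1 fell in siSRF too (-0.67 ± 0.07, adjusted p = 0.00138). NPC2 and SCARB1 were not called in siIGF2BP1.

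**Figure D4:**
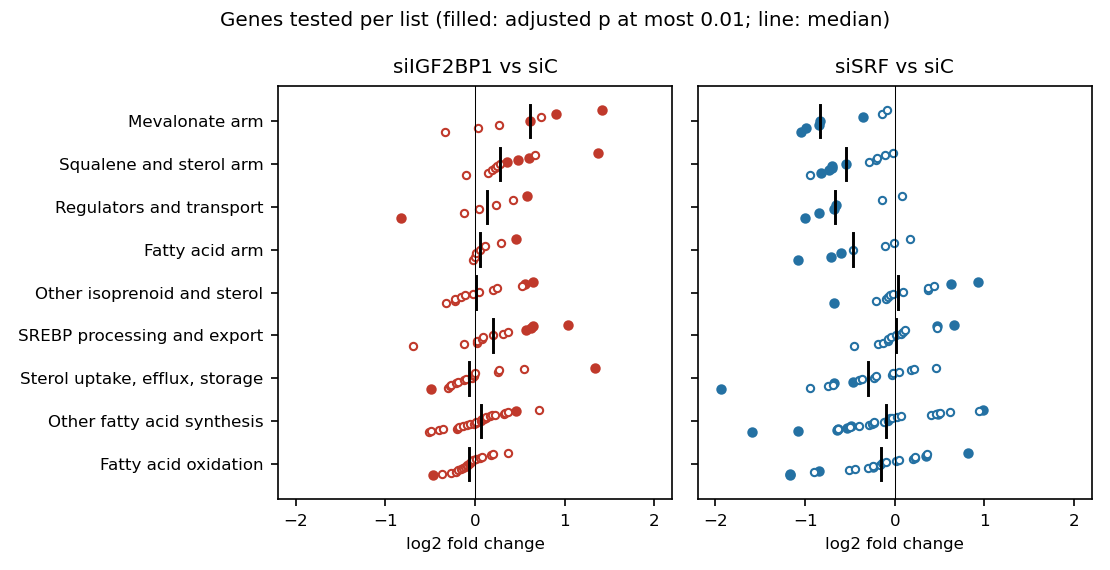
Log2 fold change against siC (horizontal axis) of each gene tested in the 4 roles of the set and in 5 lists of related genes, in siIGF2BP1 (left, red) and siSRF (right, blue); filled points have an adjusted p of at most 0.01, and the black line is the list's median. In siSRF the medians of the 4 roles lie between -0.83 and -0.46, and those of the 5 other lists between -0.30 and 0.03.

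Among 31 further genes of fatty acid and glycerolipid synthesis, 1 of 27 tested rose and none fell in siIGF2BP1, where 3 were lower at an unadjusted p under 0.05 and limma-voom called 1 lower. In siSRF, 2 of 28 rose and 6 fell. Beside these counts, 3.55% of all genes tested were called higher and 3.57% lower in siIGF2BP1, and 6.85% and 5.34% in siSRF. For protein-coding genes averaging 1 FPKM or more, the shares were 6.49% and 7.07% in siIGF2BP1 and 13.3% and 10.2% in siSRF. PNPLA3, a lipid droplet protein known as a target of the SREBF1 product, was at 8.81, 8.56 and 7.23 FPKM in siC and 2.78, 2.1 and 3.19 in siSRF (-1.59 ± 0.17, adjusted p = 0.00157). In siIGF2BP1 PNPLA3 stood at 9.08, 8.44 and 8.18 FPKM, overlapping the siC range, where SREBF1 was at 56.3% of its siC mean. SLC25A1, the mitochondrial citrate carrier, and ACSL3, an acyl-CoA synthetase, fell in siSRF (-1.08 ± 0.07, adjusted p = 0.000473, and -0.64 ± 0.07, adjusted p = 0.00186). GPAM, which starts glycerolipid assembly, went the other way, from 4.08, 4.19 and 5.41 FPKM in siC to 9.90, 8.91 and 8.34 in siSRF (0.98 ± 0.13, adjusted p = 0.00341).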

How the data were processed

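Total RNA of 9 ES-2 libraries was sequenced by the authors (ribosomal RNA depletion, directional library kit). Per the labels and methods, reads were clipped with cutadapt 1.14, aligned with HISAT2 2.1.0 to GRCh38, counted on Ensembl genes with featureCounts 1.5.3 and normalized by TMM in edgeR 3.18.1. The deposited values are FPKM per gene and library in 2 tables whose siC columns are identical, so all libraries share a scale. The authors' own fold changes and p-values in these tables were not used.

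The values were whole reads for 100.0% of entries (tolerance 0.01 read), at 6421764 to 9416175 reads per library. Intervals cover the spread between libraries. Genes averaging 0.1 FPKM or more were fitted pairwise by limma-trend (limma 3.58.1, R 4.3.3) on log2(FPKM + 0.1), which understates changes of low genes. Adjusted p-values are Benjamini-Hochberg values across every gene in the fit, called at 0.01 or less, and fits were tested on simulated data. SE and 95% intervals are those of limma. The members and lists were chosen with earlier results of these data known. Members called in any comparison and the 6 regulators are given by library, other members by mean or range, and of each further list at most 4 called genes with the smallest p are named. Gene coordinates and exon overlaps came from GENCODE v44. Alternatives were another pseudocount, filter, scaling, fit, threshold or gene universe, removal of GC and length trends, a replicate block, limma-voom on the recovered reads and leaving out each library.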

Additional observations from a re-analysis of the deposited data

How the results depend on the processing

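The members' medians kept their sign under every alternative run. In siIGF2BP1 against siC, the 9 higher members became 14 at a threshold of 0.05, where 1760 of all 22292 genes were called higher. The count was 1 to 5 when a library was left out, and fewer libraries were then fitted. The share over all genes was not counted in any fit with a library left out. The 1 lower member became 2 with a filter at 1 FPKM, median-ratio rescaling, all 9 libraries in one fit, a threshold of 0.05 or adjustment over protein-coding genes. In siSRF against siC, 17 lower members became 11 to 15 without a library, and the median of -0.61 moved to -0.52 with GC and length trends removed and ranged from -0.65 to -0.56 without a library. Between the knockdowns, the median of 0.87 moved to 0.577 with a pseudocount of 1 and ranged from 0.763 to 0.95 without a library, and the count of 0 lower members became 1 with a filter at 1 FPKM, all 9 libraries, a threshold of 0.05, adjustment over protein-coding genes or GC and length trends removed, and 0 to 1 without a library. The cause of these moves was not tested. Equal replicate numbers did not pair the libraries (correlation of deviations from -0.0438 to 0.0186). With the replicate block, siIGF2BP1 had 1 higher and 0 lower members, where 60 of all 22292 genes were called higher and 31 lower. For siSRF that fit gave 6 lower members, where 244 of all 21857 genes were called lower. Reversals touched differences near 0 only: in siIGF2BP1, FASN became 0.107 with GC and length trends removed and ranged from -0.0735 to 0.0163 without a library, EBP from -0.174 to 0.00985 and PNPLA3 from -0.0206 to 0.12; in siSRF, GC and length trends removed gave INSIG2 -0.182, SCAP 0.1 and MBTPS1 0.0168. Over 45 named genes, 2412 values under alternatives held 2196 on the same side of the threshold, 155 that lost a call, 53 that gained one and 8 reversals. Genes with few reads, such as TM7SF2 and HSD17B7, had the widest intervals.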

Other observations

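Fatty acid oxidation, the opposing pathway, was covered by 22 genes. In siIGF2BP1, 21 were tested, none rose (0 at an unadjusted p under 0.05, and 0 with limma-voom) and 1 fell. The median log2 fold change was -0.06. Of all 22292 genes tested, 3.55% were called higher and 3.57% lower. ACADVL, the dehydrogenase that begins the oxidation of long chains, was at 68.4, 75.3 and 69.2 FPKM in siC, at 50.4, 51.5 and 52.1 in siIGF2BP1 and at 82.8, 82.2 and 83.0 in siSRF. It fell in siIGF2BP1 (-0.47 ± 0.05, adjusted p = 0.00232), and its siSRF libraries were above siC without a call (0.22, adjusted p = 0.0183; limma-voom called it, adjusted p = 0.000884). In siSRF, 20 genes were tested, 2 rose and 4 fell, with a median of -0.15. Of all 21857 genes tested there, 6.85% were called higher and 5.34% lower. Among protein-coding genes averaging 1 FPKM or more, the shares were 13.3% and 10.2%. SLC25A20, which carries acylcarnitines into mitochondria, was at 4.58, 4.90 and 4.81 FPKM in siC and 8.27, 9.08 and 8.08 in siSRF (0.82 ± 0.07, adjusted p = 0.000972). ETFA, a subunit of the electron transfer flavoprotein, rose in siSRF (0.35 ± 0.04, adjusted p = 0.00257), whereas its partner ETFB was at 4.88, 4.91 and 5.80 FPKM there against 6.36, 7.87 and 7.08 in siC, with an adjusted p of 0.0326 and, by limma-voom, a call (adjusted p = 0.00047). The other values are from limma-trend, with 3 libraries per group.

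CDH5, the cadherin of endothelial cells, was at 8.09, 10.6 and 9.49 FPKM in siC, at 14.1, 15.4 and 16.1 in siIGF2BP1 and at 7.53, 8.45 and 7.81 in siSRF, in a line labelled as ovarian. PECAM1, another endothelial marker, stayed between 0.0424 and 0.387 FPKM in the 9 libraries.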
